A study of Mus musculus with 22 samples.

Results

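n23 neurons are a hypothalamic neuron type that the deposited annotation names for Sst, the gene of the inhibitory peptide somatostatin, and for Unc13c, a gene of the synaptic vesicle priming family. Every nucleus whose deposited cell type begins with n23 was taken, which gave 327 of 24965 nuclei, out of 19416 neuron nuclei in all. The mice were male and leptin-deficient (ob/ob), in both treatments and on both days, and were 11 weeks old. Fibroblast growth factor 1 (FGF1, 3 µg) or vehicle was given once into the cerebral ventricles (icv), and vehicle mice were pair-fed to the FGF1 mice. Hypothalamic nuclei were sequenced from 3 FGF1 and 3 vehicle mice after 1 day (Day 1) and from 2 FGF1 and 2 vehicle mice on Day 5, with 1 library per mouse. Because all mice lack leptin, no lean or leptin-replete group was compared. The authors removed neurons from the whole-cell libraries of the study, which were not used here.

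Somatostatin neurons of the hypothalamus are best known for releasing the peptide that restrains growth hormone secretion from the pituitary, and growth hormone acts back on such neurons through its receptor, Ghr. Other hypothalamic somatostatin neurons, among them arcuate ones, use the peptide as a local transmitter together with GABA. FGF1 binds FGF receptors, which signal through the MAPK-ERK pathway, and genes of the Spry, Spred and Dusp families and the Etv factors are well-known targets of that pathway.

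n23 nuclei numbered 80, 39 and 15 in Day 1 FGF1 mice 1, 2 and 3, and 20, 28 and 14 in Day 1 vehicle mice 1, 2 and 3. On Day 5 there were 25 and 51 in FGF1 mice 37 and 45, and 47 and 8 in vehicle mice 28 and 38. Their summed unique molecular identifiers (UMIs, 1 per captured RNA molecule) ran from 26045 to 154503 per mouse, and a median n23 nucleus held 2250 UMIs against 2631 in all other neurons. Day 1 FGF1 mouse 1 stood apart, with 2.30% of n23 UMIs from ribosomal protein genes against 0.876% to 1.31% in the other 9 mice. Of the n23 nuclei, 12 had a barcode that another library also held, as had 638 of all nuclei.

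Somatostatin RNA set the label apart in every mouse. Summed over the n23 nuclei of a mouse and scaled to counts per 1000000 UMIs (CPM, with TMM factors), Sst reached 11321, 4214 and 2614 CPM in Day 1 FGF1 mice 1, 2 and 3 and 3621, 7427 and 6406 in Day 1 vehicle mice 1, 2 and 3. It reached 7728 and 4387 CPM in Day 5 FGF1 mice 37 and 45 and 9083 and 9969 in Day 5 vehicle mice 28 and 38. The lowest of these values lay far above the highest in all other neurons, whose Sst level ran from 69.7 to 254 CPM. It also lay above every Agrp neuron value (19.2 to 417 CPM) and every astrocyte value (62.3 to 569 CPM). Sst lies on chromosome 16 of GRCm38, from 23889573 to 23890958 on the minus strand, and codes for protein. The label was assigned from the RNA of the same nuclei, so these levels describe the label and were not tested.

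**Figure D1:**
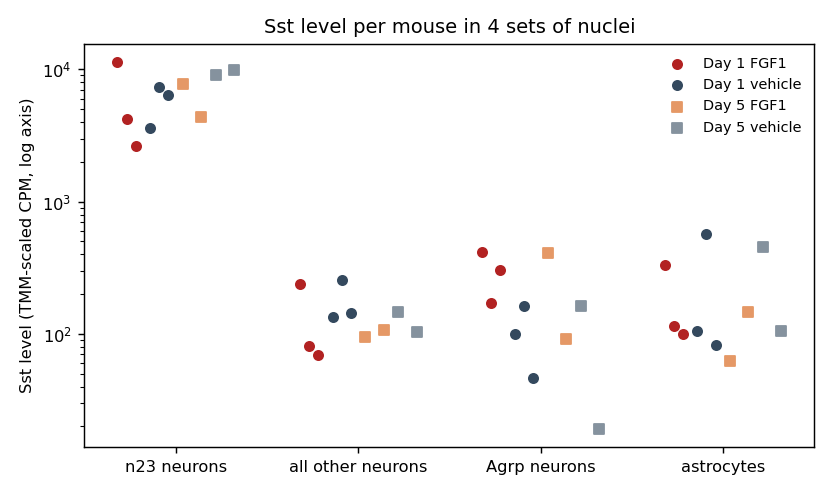
Sst level of each mouse (TMM-scaled CPM, log axis) in n23 neurons, all other neurons, Agrp neurons and astrocytes, with 1 point per mouse and colours for the 4 groups. Every n23 value, from 2614 CPM upwards, lies above every value of the other 3 sets.

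At least 1 Sst UMI was found in 95.1% of n23 nuclei, with per-mouse shares from 86.7% to 100%. The share was 16.8% in other neurons, 23.5% in Agrp neurons and 27.7% in astrocytes, which should lack the gene and had a median depth of 2693.5 UMIs. With every nucleus thinned to 1000 UMIs, which left out no nucleus, the shares were 90.2% in n23 nuclei and 8.06% in other neurons. Among n23 nuclei, Sst took a median of 5.66 per 1000 UMIs, with a 10th percentile of 0.777, a 90th percentile of 18.2 and a maximum of 55.0. Sst was not counted in 16 n23 nuclei, whose median depth of 2248.5 UMIs was close to the 2250 of the rest. Unc13c, the other gene of the name, did not set n23 nuclei apart: it was counted in 29.1% of them and 29.0% of other neurons, and its summed level exceeded that of other neurons in 7 of 9 mice.

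The label carried a confidence from the projection of published cell types, and Sst followed it. n23 nuclei had confidences from 0.75 to 1, with a median of 0.955. Sst stood at 2540 CPM in the 39 n23 nuclei with a confidence of 0.75 to 0.8, at 4174 in the 73 at 0.8 to 0.9, and at 9399 in the 215 above 0.9. Just outside the threshold, 33 nuclei had n23 as best label at a confidence of 0.7 to 0.75 without being called n23, and there Sst stood at 2595 CPM with a UMI in 78.8% of them. That was close to the 79.5% just inside the threshold. In all, n23 was the best label of 1161 nuclei at any confidence, of which 713 were left unmapped by the annotation and 61 were placed in GABA14. Sst was lower in those with a confidence of 0.5 to 0.7 (1216 CPM, 204 nuclei) and under 0.5 (741 CPM, 597 nuclei).

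Beside Sst, single genes of several kinds were higher in n23 nuclei than in other neurons, among them Ghr, Thrb, Sox6 and the granin Scg2. Of 1664 genes with a UMI in at least 25% of n23 nuclei, 56 were above all other neurons in each of the 9 mice with 10 or more n23 nuclei, and 61 were below in each. The 20 genes ranked by their least favourable mouse opened with Sst, at a median log2 ratio of 5.39 (n23 over other neurons of the same mouse, CPM plus 10). Next came Eda, a ligand of the TNF family (median log2 ratio 1.19), Sox6, a transcription factor of interneuron development (1.92), and Thrb, the thyroid hormone receptor beta (0.98). Ghr, the growth hormone receptor, ranked 9th at 1.51, Cpne4, a calcium-dependent membrane-binding protein, had 1.08, and Scg2 had 0.82. The other members of the 20, among them Rbms3 (0.55), Auts2 (0.55), Ppp1r9a (0.65), Pex5l (0.73) and Cnksr2 (0.77), differed by less than 1 log2 unit. Against Agrp neurons, the median log2 ratio was below 0 for Ghr (-1.45), Pex5l (-0.96), N4bp2l1 (-0.73), Ppp1r9a (-0.16) and Auts2 (-0.01). It was above 0 for the rest of the 20. A Sox6 UMI was found in 28.7% of n23 nuclei, 10.6% of other neurons and 54.3% of astrocytes. The ranking used the same RNA that set the label, so it is a description.

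**Figure D2:**
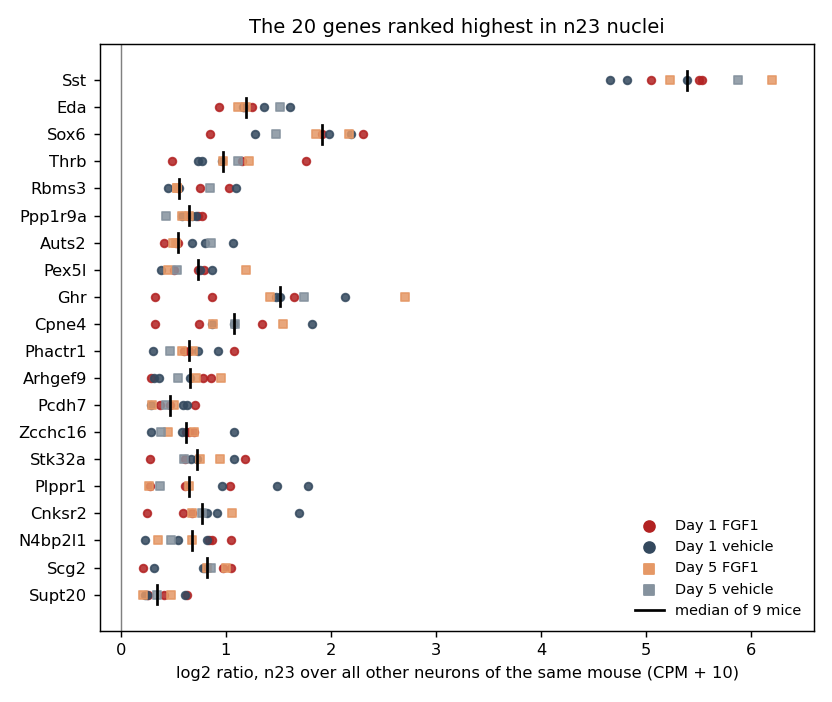
Log2 ratio of the level in n23 nuclei over that in all other neurons of the same mouse (CPM plus 10) for the 20 genes ranked highest, with 1 point for each of 9 mice and a bar at their median. Sst, at a median of 5.39, lies far above the next genes, which lie between 0.34 and 1.92.

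Ghr was high in n23 nuclei and varied among mice. Its level in n23 nuclei was 562, 1120 and 405 CPM in Day 1 FGF1 mice 1, 2 and 3, and 999, 819 and 1785 in Day 1 vehicle mice 1, 2 and 3. On Day 5 it was 1712 and 725 CPM in the FGF1 mice and 885 and 823 in the vehicle mice. Other neurons stayed between 255 and 400 CPM, and Agrp neurons, at 1622 to 4724 CPM, carried more Ghr than other neurons and, in 9 of 10 mice, more than n23 nuclei. A Ghr UMI was found in 68.8% of n23 nuclei, 41.6% of other neurons and 99.7% of Agrp neurons.

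Among 48 listed hormone and peptide receptors, Calcr, which binds calcitonin and amylin with its partner proteins, was above other neurons in each of 9 mice (median log2 ratio 2.08). A Calcr UMI was found in 23.5% of n23 nuclei against 7.07% of other neurons and 2.86% of astrocytes. Tacr1, the substance P receptor, was also above in each of 9 mice (1.60), in 11.9% of n23 nuclei against 4.24% of other neurons and 1.76% of astrocytes. Npy2r, a receptor for neuropeptide Y, was above in 7 of 9 mice (6.12% against 1.92%). The leptin receptor Lepr was rare, with a UMI in 4.28% of n23 nuclei, 6.73% of other neurons and 60.7% of Agrp neurons. Htr2c, a serotonin receptor, and Trhr, the receptor of thyrotropin-releasing hormone, were below other neurons in each of 9 mice (median log2 ratios -0.81 and -1.67). Trhr gave 0 to 4 UMIs per mouse in n23 nuclei, and a mouse with 0 UMIs lies below whenever other neurons hold the gene.

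Of the listed transcription factors, Otp and Isl1, which act in the development of hypothalamic neurons, were above other neurons in each of 9 mice. Otp had a UMI in 10.4% of n23 nuclei and 2.12% of other neurons, and Isl1 in 23.5% and 12.0%, while astrocytes had 2.54% and 4.88%. Onecut2, Meis2, Tcf7l2 and Foxp2 were below in each of 9 mice, with median log2 ratios of -1.58, -1.52, -1.46 and -1.05. Per mouse they gave 0 to 1, 0 to 3, 0 to 3 and 0 to 16 UMIs in n23 nuclei. A mouse with 0 UMIs lies below whenever other neurons hold the gene, so the ratios of the first 3 are near the floor.

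Transmitter genes gave no clear assignment. A UMI of Gad1, Gad2 or Slc32a1, which make or load GABA, was found in 153 n23 nuclei (46.8%), of Slc17a6, the vesicular glutamate transporter, in 39 (11.9%), of both in 15, and of neither in 150. The nuclei with neither were shallower (median 2088.5 UMIs) than those with a GABA gene (2601). Gad1 was found in 17.7% of n23 nuclei and 16.1% of astrocytes, and Slc32a1 in 7.95% and 9.3%, so the share of Slc32a1 was not above that background and that of Gad1 was close to it. At 1000 UMIs per nucleus Gad1 was found in 5.50% and 6.24%. Gad2 was found in 36.7% of n23 nuclei, 31.0% of other neurons and 19.6% of astrocytes. Slc17a6 was found in 22.2% of other neurons and 9.69% of astrocytes. Slc18a2 and Hdc, of monoamine and histamine neurons, were below other neurons in each of 9 mice, with a UMI in 0.306% of n23 nuclei for Hdc and in 0 of 327 for Slc18a2, which allows up to 0.917% of nuclei with a UMI for counting error alone and sets no limit on the share that express it.

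Npy, the gene of neuropeptide Y, was found in 41.3% of n23 nuclei, 19.8% of other neurons and 35.0% of astrocytes. At 1000 UMIs per nucleus these shares were 26%, 10.2% and 14.6%. The marker of Agrp neurons, Agrp, had 15.6%, 10.9% and 14.8% at that depth. Agrp neurons express both genes. The ratio of Npy to Agrp UMIs was 2.32, 14.2, 2.14, 2.75, 9.25, 1.92 and 3.95 in n23 nuclei of Day 1 FGF1 mouse 2, Day 1 vehicle mice 1, 2 and 3, Day 5 FGF1 mice 37 and 45 and Day 5 vehicle mouse 28. In Agrp neurons of all mice it ran from 0.783 to 1.53, and in astrocytes from 1.00 to 1.64. The n23 ratio was above both in 8 of 10 mice, counting 1.14 in Day 1 FGF1 mouse 3, and fell below in Day 1 FGF1 mouse 1 (0.776) and Day 5 vehicle mouse 38 (1.5). The ratios of 14.2, 9.25 and 2.75 each rest on 4 Agrp UMIs, and the source of the Npy UMIs was not tested. Pnoc, the precursor of the opioid-related peptide nociceptin, had a UMI in 17.4% of n23 nuclei, 6.78% of other neurons and 5.59% of astrocytes, and was above other neurons in 7 of 9 mice. Tac1 and Gal, of the tachykinin and galanin peptides, were below in each of 9 mice, from 0 to 16 and 0 to 35 UMIs per mouse.

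Ion channel and receptor genes were mostly close to those of other neurons. Of 16 listed potassium channel genes and 16 listed sodium, calcium and other cation channel genes detected in at least 25% of n23 nuclei, 1 of each list was above other neurons in each of 9 mice and 2 of each were below, beside 56 and 61 of the 1664 detected genes. Those above were Kcnip1, a subunit of A-type potassium channels (median log2 ratio 0.46), and Trpc5, a cation channel (0.84). Of 24 detected glutamate and GABA receptor genes, Grid1 was above in each mouse (0.52) and 3 were below.

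FGF receptor genes did not set n23 nuclei apart. Fgfr1 was found in 11.3% of n23 nuclei and 12.8% of other neurons, and Fgfr2 in 55.4% and 61.6%. Fgfr2 was found in 60.5% of astrocytes, so its share in n23 nuclei was not above theirs. Fgfr3 was found in 0.612% of n23 nuclei against 47.6% of astrocytes. The co-receptors Klb and Kl were found in 1.83% and 1.53%.

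The share of n23 nuclei answers whether the type was recovered equally after FGF1. n23 nuclei made up 1.99%, 1.93% and 1.71% of the neuron nuclei of Day 1 FGF1 mice 1, 2 and 3 (1.88% ± 0.147, SD, n = 3) and 2.13%, 1.65% and 1.68% of vehicle mice 1, 2 and 3 (1.82% ± 0.269, SD, n = 3). These groups overlapped, and the difference of 0.0586 percentage points was within the spread (exact two-sided permutation test, p = 0.8, smallest possible p 0.1). Within the 3 batches of the annotation, each of 1 FGF1 and 1 vehicle mouse, it was 0.310, -0.199 and 0.0643 points.

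On Day 5 the share was 1.43% and 1.2% in FGF1 mice 37 and 45 (1.31% ± 0.163, SD, n = 2) and 1.83% and 1.79% in vehicle mice 28 and 38 (1.81% ± 0.0320, SD, n = 2). Both FGF1 mice lay below both vehicle mice, by 0.402 and 0.587 points within the 2 batches. An exact two-sided permutation test of 2 against 2 mice cannot go below p = 0.333, the value it gave. The 95% Wilson interval of the 8 n23 nuclei of vehicle mouse 38 ran from 0.908% to 3.48%, which covers the FGF1 values. Such an interval covers counting error only.

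**Figure D3:**
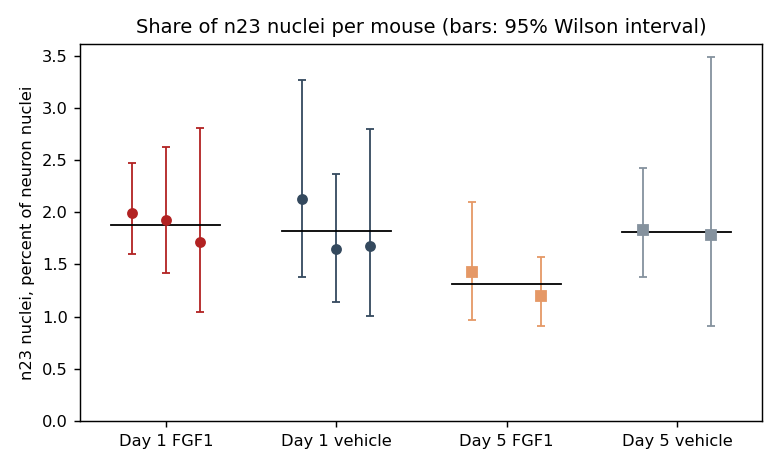
Share of n23 nuclei among the neuron nuclei of each mouse, in percent, with the 95% Wilson interval of each mouse and a bar at the group mean. The Day 1 groups overlap between 1.65% and 2.13%, and the Day 5 FGF1 mice, at 1.43% and 1.2%, lie below the vehicle mice at 1.83% and 1.79%.

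The response of n23 nuclei to FGF1 was then tested gene by gene on UMIs summed per mouse (edgeR quasi-likelihood test, called at a Benjamini-Hochberg adjusted p below 0.05). On Day 1, no gene of the 1680 tested passed (0% called), and 110 had an unadjusted p below 0.05 (6.55%), 70 of them higher (4.17%) and 40 lower (2.38%) after FGF1. DESeq2 called 0 genes too, with 54 at an unadjusted p below 0.05. Sst itself had a log2 fold change of 0.04 (SE 0.57), and its 3 FGF1 mice spanned the range of the vehicle mice. The label followed Sst, so nuclei with little Sst could fall outside it. A fold change of Sst within the label therefore cannot show whether such nuclei were lost. Over all genes tested, the FGF1 mice lay wholly above the vehicle mice for 7.02% and wholly below for 4.40%.

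The gene with the smallest p was Stat3, a transcription factor that acts behind leptin and gp130 cytokine receptors, which lies on chromosome 11 from 100885098 to 100939540 (minus strand) and overlaps Stat5a on the other strand. Its level in n23 nuclei was 244, 274 and 202 CPM in the FGF1 mice and 47.0, 34.1 and 48.9 CPM in the vehicle mice. The groups did not overlap, and the log2 fold change was 2.45 (SE 0.45), with an adjusted p of 0.111 in edgeR that missed the threshold. Other neurons of the same mice had 108, 152 and 125 CPM against 50.1, 35.9 and 56.4, a log2 fold change of 1.45 (SE 0.23, adjusted p = 0.158). Stat3 in Agrp neurons had a log2 fold change of 1.19 (SE 0.38, adjusted p = 0.241), and astrocytes had 425, 613 and 434 CPM against 141, 97.3 and 158. On Day 5 Stat3 in n23 nuclei stood at 45.7 and 47.7 CPM in the FGF1 mice and 6.37 and 32.9 in the vehicle mice, too low for the test.

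The 9 genes next in p also missed the threshold. Oxr1, a gene of protection against oxidative damage, stood at 449.8, 713 and 708 CPM after FGF1 and at 188, 171 and 244 after vehicle (log2 fold change 1.60, SE 0.32). Zmym1, a zinc finger gene, stood at 381, 149 and 253 against 35.3, 45.5 and 48.9 CPM (2.58, SE 0.53). Neither gene overlapped between the groups. In other neurons, Zmym1 had nearly the same values per mouse (381, 142 and 264 against 37.7, 51.5 and 36.0 CPM) and a log2 fold change of 2.65, whereas Oxr1 had 0.49. Astrocytes of the same mice had 927, 1760.1 and 1549.7 CPM of Oxr1 against 278, 179.5 and 247. Sema6d, a membrane semaphorin, Adamts6, a secreted metalloprotease, and Alk, a receptor tyrosine kinase, had log2 fold changes of 1.55, 2.25 and 1.74. Zdhhc14, a palmitoyltransferase, had 1.47 and Cntnap5a, a membrane protein of the neurexin family, 1.03. The transcript RP23-231J2.1 had 1.65, and Uvssa, of transcription-coupled DNA repair, was the 1 lower gene (-1.66). Adjusted p-values from edgeR ran from 0.114 to 0.402. Sema6d, Zdhhc14 and Uvssa had log2 fold changes of 0.90, 1.03 and -0.83 in other neurons and 2.03, 1.45 and -1.26 in Agrp neurons. Adamts6, Alk, Cntnap5a and RP23-231J2.1 had 0.08, 0.51, 0.30 and 0.32 in other neurons.

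**Figure D4:**
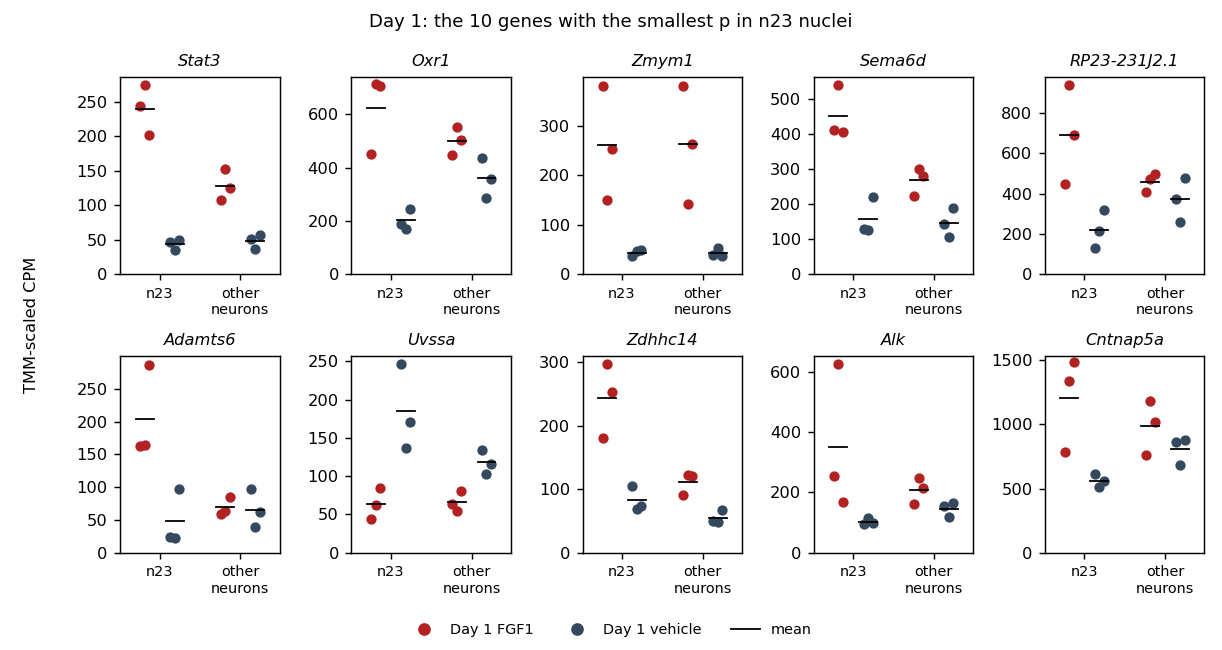
Day 1 levels (TMM-scaled CPM) of the 10 genes with the smallest p in n23 nuclei, beside all other neurons of the same mice, with 1 point per mouse and a bar at the mean. In n23 nuclei the 3 FGF1 mice do not overlap the 3 vehicle mice in any panel, and none of the 10 genes passed the adjusted threshold.

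The count of 0 changed most without Day 1 FGF1 mouse 1, the mouse with most ribosomal UMIs. Without it, 14 genes passed in edgeR: Stat3 (adjusted p = 0.0080), Oxr1, Sema6d, RP23-231J2.1, Adamts6, Alk, Cntnap5a, Fat3, Fam135b and Trpm3 were higher and Nnat, Snhg20, Faim2 and Gm26917 lower. Without vehicle mouse 2, 1 gene passed (Alcam), and with any other mouse left out 0. Nuclei thinned to 1000 UMIs gave 3 of 288 genes tested (Cntnap5a, RP23-231J2.1 and Oxr1). Testing every gene with a UMI gave 8 of 15673. The adjustment thus ran over other numbers of genes than the 1680 of the main fit, and these counts are not directly comparable.

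No listed gene passed on Day 1 either, and the counts of members with an unadjusted p below 0.05 stand against 6.55% of all genes tested (4.17% higher, 2.38% lower). In the 27 tested glutamate and GABA receptor genes, 0 passed, 2 had an unadjusted p below 0.05 higher (Grm7, log2 fold change 0.87, and Gabbr1, 1.12) and 1 lower (Gria3, -0.72), and the median was -0.12 against 0.00 over all genes tested. Of 18 potassium channel genes 2 had such a p, Kcnq5 (0.93) and Kcnd3 (1.29), both higher, with a median of 0.08. Among the 17 sodium, calcium and other cation channel genes, which had a median of 0.07, Cacna2d1 had one (0.90). Of 7 hormone receptor genes 1 had one, the glucocorticoid receptor gene Nr3c1 (-1.69), with 49.98, 39.2 and 84.3 CPM after FGF1 and 153, 125 and 269 after vehicle. Of 15 synaptic release genes 1 had one (Cadps2, -1.18), and of 12 cadherins, 8 transcription factors, 6 granin and processing genes, 4 FGF system genes and 4 heat shock genes 0 had one.

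The 14 listed MAPK feedback and Etv genes were each too sparse in n23 nuclei to be tested singly. Their summed level was 344, 548 and 371 CPM in Day 1 FGF1 mice 1, 2 and 3 and 188, 171 and 220 CPM in vehicle mice 1, 2 and 3, from 55, 70, 22, 16, 15 and 9 UMIs. The FGF1 mice were all above the vehicle mice. Other neurons of these mice had 272, 300 and 309 CPM against 166, 137 and 184. Members went different ways, and those named here were chosen after their values were seen. Etv5 stood at 68.7, 31.3 and 50.6 CPM in n23 nuclei after FGF1 and at 11.8, 22.8 and 24.5 after vehicle. These levels rest on 11, 4 and 3 against 1, 2 and 1 UMIs. Etv4 (5, 2 and 2 against 0, 1 and 0 UMIs) did not overlap between the groups either. Spred1, with 15, 24 and 4 against 5, 3 and 4 UMIs, overlapped in CPM, as did Spred2, Spred3 and Dusp6. On Day 5 the sum was 205 and 162 CPM after FGF1 and 178 and 98.7 after vehicle, and the groups overlapped. The 6 listed genes of GABA synthesis and transport were also higher in sum in every Day 1 FGF1 mouse (494, 478 and 573 CPM) than in every vehicle mouse (435, 387 and 342 CPM). Other neurons had 405, 419 and 402 against 481, 441 and 483 CPM. These separations of sums, which were not tested, stand beside 7.02% wholly higher and 4.40% wholly lower among all single genes tested. The other 26 summed lists overlapped between the groups on Day 1 in n23 nuclei, among them 20 genes with a response in glia of these libraries (1281, 392 and 523 against 670, 500.4 and 367 CPM), 18 immediate early genes (237, 109.7 and 50.6 against 70.5, 79.6 and 48.9 CPM) and 11 heat shock genes (2130, 1151 and 826 against 505, 1945 and 1027 CPM). FGF1 mouse 1 was the highest in each of these 3 lists.

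Members of the glial list went different ways, and those named here were chosen after their values were seen. Nnat, a small membrane protein of neurons, gave 74, 9 and 7 UMIs in n23 nuclei of Day 1 FGF1 mice 1, 2 and 3 and 45, 27 and 12 in vehicle mice 1, 2 and 3, most of the vehicle UMIs of the list. Serpina3n, a secreted protease inhibitor of reactive astrocytes, gave 9, 12 and 4 UMIs after FGF1 and 0 in each vehicle mouse, S100a6, a calcium-binding protein, gave 28, 7 and 5 against 0, 2 and 0, and Timp1, an inhibitor of metalloproteases, gave 7, 2 and 2 against 0 in each. For these last 3 genes the groups did not overlap, and none had enough UMIs for the test. Of the same list, S100a10 (30, 8 and 1 against 0, 5 and 0 UMIs) and Cd44 (4, 1 and 1 against 1, 2 and 0) overlapped. Wholly higher values were found for 7.02% of the 1680 tested genes, and no such share was computed for genes this sparse. Other neurons also separated for Serpina3n (50.5, 45.0 and 33.4 against 1.19, 5.47 and 6.16 CPM). Astrocytes of the same mice held far more, with 1228, 1163 and 661 CPM of Serpina3n against 10.5, 36.8 and 38.0, and the part of their RNA in the n23 values was not tested.

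Summed markers of other cells overlapped between the groups. The 7 astrocyte markers summed to 200, 102 and 118 CPM after FGF1 and 118, 114 and 73.3 after vehicle in Day 1 n23 nuclei, and 160 to 255 CPM in other neurons after vehicle. Of these markers, Gfap gave 13, 3 and 1 UMIs after FGF1 and 0, 1 and 0 after vehicle in n23 nuclei, and Gja1 gave 1 in each FGF1 mouse and 0 in each vehicle mouse. Slc1a3 gave 3, 1 and 2 against 3, 4 and 2, and Slc1a2 gave 4, 3 and 1 against 5, 4 and 0. Agt gave 3, 2 and 0 against 1, 0 and 0, Slc4a4 gave 8, 3 and 2 against 1 in each vehicle mouse, and Aqp4 was at 0 in each Day 1 mouse. The 7 oligodendrocyte markers summed to 50.6 to 137 CPM after FGF1 and 73.3 to 182 after vehicle. In n23 nuclei of all mice, Cspg4, Olig2, C1qb and Dcn were at 0.

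On Day 5, vehicle mouse 38 had 8 n23 nuclei, under the planned minimum of 10, so that 1 vehicle mouse would have remained. With the minimum at 5, 3 of 1991 genes passed (0.151% called), all lower after FGF1, beside 109 at an unadjusted p below 0.05 (5.47%). With 2 mice against 2, the groups did not overlap for 22.1% of all genes in the higher and 15.1% in the lower direction. Ly6h, of a family of membrane-anchored proteins that bind nicotinic receptors, stood at 79.9 and 124 CPM in the FGF1 mice and 789 and 329 in the vehicle mice (log2 fold change -2.67, SE 0.42, adjusted p = 0.0142). Gm26917, annotated as a lincRNA, stood at 11.4 and 9.54 CPM against 204 and 132 (-4.06, SE 0.70, adjusted p = 0.0170). Eif1, a factor of translation start, stood at 45.7 and 19.1 CPM against 229 and 197 (-2.83, SE 0.54, adjusted p = 0.0434). The levels rest on 7 and 13 against 124 and 10 UMIs for Ly6h. For Gm26917 they rest on 1 and 1 against 32 and 4 UMIs, and for Eif1 on 4 and 2 against 36 and 6. Without vehicle mouse 28, Gm26917 and Eif1 had too few UMIs left to be tested. The fold changes and adjusted p-values are from edgeR, and DESeq2 called 0 genes, with 29 at an unadjusted p below 0.05. The genes lie on chromosome 15 from 75551268 to 75567255 (Ly6h, minus strand), chromosome 17 from 39843013 to 39846341 (Gm26917, plus strand) and chromosome 11 from 100319885 to 100322096 (Eif1, plus strand).

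Low levels of the 3 genes after FGF1 were also found in other nuclei of the same mice. Other neurons of the same mice had log2 fold changes of -1.80 for Ly6h, -3.19 for Gm26917 and -2.04 for Eif1, none of which passed in the 15977 genes tested there. Agrp neurons of the FGF1 mice had 107 and 68.8 CPM of Ly6h against 769 and 404, and 17.8 and 11.5 CPM of Gm26917 against 256 and 77.0. On Day 1 the same genes varied widely within a group, and Ly6h in n23 nuclei stood at 1449, 290 and 135 CPM in the 3 FGF1 mice. In astrocytes Gm26917 stood at 14.2 and 2.54 CPM after FGF1 and at 88.2 and 32.2 after vehicle. The part of RNA shared by all nuclei of a library in these 3 calls was not tested. Leaving out 1 mouse gave 7 genes without FGF1 mouse 37, 2 without FGF1 mouse 45, 19 without vehicle mouse 28 and 20 without vehicle mouse 38, and thinning to 1000 UMIs gave 0. In edgeR, Ly6h no longer passed without vehicle mouse 28 (adjusted p = 0.188), nor did Gm26917 (adjusted p = 0.0646) and Eif1 (adjusted p = 0.522) without FGF1 mouse 45.

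**Figure D5:**
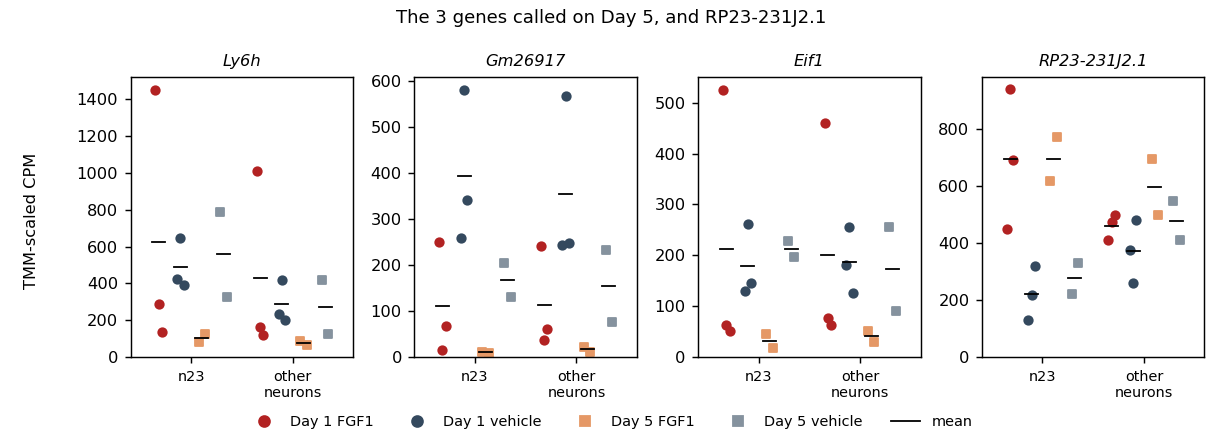
Levels (TMM-scaled CPM) of the 3 genes called on Day 5 and of RP23-231J2.1 in n23 nuclei and in all other neurons, with 1 point per mouse and a bar at the group mean. Ly6h, Gm26917 and Eif1 are low in both Day 5 FGF1 mice in both sets of nuclei, and RP23-231J2.1 in n23 nuclei is higher in every FGF1 mouse than in every vehicle mouse of both days.

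The genes next in p on Day 5 did not pass. Asxl3 (log2 fold change -1.91), Gm17660 (-1.11) and Npy (-1.32) had negative values, with -0.74, -0.88 and -1.88 in other neurons. Gm17660 stood at 525 and 505 CPM in n23 nuclei of the Day 5 FGF1 mice and at 948 and 1250 in the vehicle mice. Astrocytes of the same mice had 637.5 and 462 against 1036 and 1222 CPM. Sorcs1, a sorting receptor (1.22), RP23-231J2.1 (1.42), Hs3st4, a heparan sulfate sulfotransferase (1.78), and Trpm3, a cation channel (1.08), had positive values, with 0.23, 0.40, 0.17 and 0.28 in other neurons. Sst was at -0.74 (SE 0.28, adjusted p = 0.739 in edgeR), and its FGF1 mice, at 7728 and 4387 CPM, lay below its vehicle mice. As on Day 1, this value was measured within a label that itself followed Sst. Among listed genes, Agrp (-1.57), Npy, Sst, Grik1 (-1.22) and Nnat (-1.34) had an unadjusted p below 0.05 lower. Those higher at such a p were Kcnq5 (0.84), Kcnip4 (0.67), Rbfox3 (1.14), Pcdh9 (0.57) and Col25a1 (1.35). Of all genes tested, 1.96% were higher and 3.52% lower at such a p. Agrp had -1.35 in other neurons. Whether the FGF1 effect differed between the days was tested over the mice with at least 10 nuclei, which left 1 vehicle mouse on Day 5. Of 3278 genes, 0 passed in edgeR, and 101 had an unadjusted p below 0.05. DESeq2 called 0 as well, with 27 at such a p. With 1 mouse in a group, that mouse is assumed to vary like the others. At a minimum of 5 nuclei, which kept both Day 5 vehicle mice, 0 of 2498 genes passed in edgeR and 83 had an unadjusted p below 0.05.

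The last question was whether n23 nuclei differed from other neurons of the same mice in their Day 1 response. In a model with each mouse as a block, 5 of 12298 genes passed (0.0407% called), all with a higher log2 fold change in n23 nuclei than in all other neurons. Of the 12298, 1680 had enough n23 UMIs for the test in n23 nuclei alone, and the rest entered through the larger sums of the other neurons. With RLE in place of TMM scaling, 7 passed, 5 higher and 2 lower, and the genes at an unadjusted p below 0.05 went from 406 higher and 172 lower to 317 higher and 254 lower. The 5 genes called with TMM scaling were Agrp (difference 1.79, SE 0.32), RP23-231J2.1 (1.44, SE 0.27), Adamts6 (2.41, SE 0.50), Arhgap6, a GTPase-activating protein (1.41, SE 0.30), and Oxr1 (1.25, SE 0.28). Adjusted p-values from edgeR ran from 0.00016 to 0.0230. Adamts6 in n23 nuclei stood at 162, 164 and 287 CPM after FGF1 and 23.5, 22.7 and 97.8 after vehicle, and in other neurons at 58.8, 64.0 and 85.7 against 96.8, 38.5 and 62.2. It did not overlap between groups in n23 nuclei and did in other neurons. Arhgap6 stood at 494, 352 and 269.8 against 212, 171 and 122 CPM in n23 nuclei, and at 144, 172 and 188 against 206, 152 and 199 CPM in other neurons. Agrp neurons had 623, 675 and 885 against 409.7, 326 and 372 CPM of Arhgap6, also without overlap, with a log2 fold change of 0.97 against 1.10 in n23 nuclei.

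RP23-231J2.1, a transcript with no entry in the annotation used here, separated the groups on both days in n23 nuclei. In n23 nuclei it stood at 449.8, 939.9 and 691 CPM in the Day 1 FGF1 mice and 129, 216 and 318 in the vehicle mice. On Day 5 it stood at 616 and 772 CPM against 223 and 329. Every FGF1 mouse of either day lay above every vehicle mouse, and in all 1.19% (20 of 1680) of the genes tested on Day 1 separated in this way, among them Oxr1, Zmym1, Alk, Cntnap5a, Sorcs1, Arhgap6 and Kcnq5. Zmym1 separated in the same way in other neurons. For RP23-231J2.1 other neurons had 409, 472 and 498 against 375, 259.7 and 479.8 CPM on Day 1 and 694 and 498 against 545 and 412 on Day 5, and these groups overlapped.

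Most Day 1 Agrp UMIs of n23 nuclei lay in few nuclei of 1 mouse. Agrp in n23 nuclei stood at 1224, 243 and 118 CPM in Day 1 FGF1 mice 1, 2 and 3 and at 47.0, 239 and 97.8 CPM in the vehicle mice, so that mouse 1 alone was high. There, 9 of 80 n23 nuclei held 10 or more Agrp UMIs and 163 of the 196 Agrp UMIs of all 80, but 5 Npy UMIs in all, with 0 to 2 each. Agrp neurons of that mouse with 10 or more Agrp UMIs held 4967 of Agrp and 4951 of Npy. The 9 nuclei also held 203 Sst UMIs. Of the n23 nuclei in the other 9 mice, 1 had 10 or more Agrp UMIs, in Day 5 vehicle mouse 28. Without FGF1 mouse 1 the Agrp difference was 1.09 and did not pass, and neither did Arhgap6 (0.97). Without vehicle mouse 1, 0 genes passed, and without vehicle mouse 2, 10 did.

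Against Agrp neurons alone, a type of arcuate neuron that drives feeding, 17 of 2589 genes passed (0.657% called), 10 with a higher and 7 with a lower log2 fold change in n23 nuclei. Trpm3 had the smallest p (difference 2.39, SE 0.38, adjusted p = 0.00069 in edgeR). It stood at 369, 1081 and 1248 CPM after FGF1 and 529, 478 and 293 after vehicle in n23 nuclei, and at 111, 105 and 139.8 against 409.7, 416 and 303 CPM in Agrp neurons. The Agrp neuron groups did not overlap, whereas those of n23 nuclei did through FGF1 mouse 1. Fndc3a, a fibronectin-domain protein (1.90), Cntnap5a (1.74), Ntng1, the axon guidance protein netrin-G1 (2.21), and Scg2 (1.42) followed in that direction. In n23 nuclei alone, the log2 fold changes of Fndc3a, Cntnap5a, Ntng1 and Scg2 were 0.69, 1.03, 0.92 and -0.07. In Agrp neurons they were -1.13, -0.71, -1.17 and -1.35, and in all other neurons -0.26, 0.30, 0.95 and -0.43.

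In the other direction, Kcnq3, a subunit of the potassium channels of the M-current, had a difference of -1.71 (SE 0.35). It stood at 425, 540.5 and 573 against 376, 284 and 538 CPM in n23 nuclei and at 543, 751 and 699 against 147, 139 and 163 CPM in Agrp neurons. Its log2 fold change was 0.35 in n23 nuclei and 2.16 in Agrp neurons (adjusted p = 0.0098 in edgeR for the latter). Lcorl (-2.17), March1 (-1.74), Ppfia2 (-1.60) and Galntl6 (-1.72) went the same way. Their log2 fold changes were -0.56, -0.92, -0.46 and -0.51 in n23 nuclei and 1.71, 0.89, 1.22 and 1.27 in Agrp neurons. In all other neurons they were -0.21, -0.03, 0.03 and 0.03. Kcnq3 and Pcdh15, which also passed, are in a list chosen from the response of Agrp neurons in these libraries, so they are not independent evidence. With 1 mouse left out, the differences of the 10 genes named kept their direction, as Kcnq3 (-1.93 to -1.59) and Trpm3 (1.97 to 3.05) show. The count of calls was 2 without FGF1 mouse 1 (Trpm3 and Lcorl), 1 without vehicle mouse 1 (Trpm3), 11 without FGF1 mouse 2, 15 without FGF1 mouse 3, 15 without vehicle mouse 2 and 17 without vehicle mouse 3.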

How the data were processed

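Single-nucleus libraries (10x 3' v2) of 10 mice, 1 per mouse, were used. The authors aligned reads to GRCm38 (mm10) with introns included by Cell Ranger 1.2 and deposited raw UMI counts per gene and nucleus, and they did not run their doublet caller on nuclei. None was run here. The deposited metadata gave mouse, batch, cell type and the label confidence, a fraction from label projection in Seurat. The groups came from the labels. Coordinates came from GENCODE vM21 on GRCm38, which may differ from the authors' annotation release.

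UMI counts were summed over the n23 nuclei of each mouse with at least 10 (Day 5: 5), filtered with filterByExpr, scaled by TMM and tested with edgeR 4.0.16 (estimateDisp, robust glmQLFit, glmQLFTest, Benjamini-Hochberg over all genes tested, threshold 0.05). Each day was fitted alone, with no covariate. Comparisons between cell types had mouse as a block. Fold changes are log2 of FGF1 over vehicle, and SE is that implied by the F statistic. DESeq2 1.42.0 was an alternative. n23 mice summed 26045 to 154503 UMIs, so genes of few UMIs were not tested. Shares were compared by exact permutation. The tests were tested on simulated data.

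The genes named were all called genes, or the 10 of smallest p where fewer passed, 5 per direction between cell types where over 10 passed, the 20 top-ranked genes and members of 28 lists. The n23 nuclei and the lists were chosen with earlier results of these data known. Genes named after their values were seen are those called without a mouse or in thinned nuclei, Pcdh15, and the members of the MAPK feedback, glial and astrocyte lists. The p-values measure the spread between single mice. Some listed genes are not reported here.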

Additional observations from a re-analysis of the deposited data

Results flagged for a closer look

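The Day 1 effect of FGF1 in n23 nuclei differed from that in other nuclei of the same mice, by a test of the difference itself, for 5 genes against all other neurons and for 17 genes against Agrp neurons. Against all other neurons the log2 differences were 1.79 for Agrp, 1.44 for RP23-231J2.1, 2.41 for Adamts6, 1.41 for Arhgap6 and 1.25 for Oxr1. Of the Agrp UMIs, 163 of 196 in n23 nuclei of Day 1 FGF1 mouse 1 lay in 9 nuclei. Against Agrp neurons the log2 differences were 2.39 for Trpm3, 1.90 for Fndc3a, 1.74 for Cntnap5a, 2.21 for Ntng1 and 1.42 for Scg2, and -1.74 for March1, -2.17 for Lcorl, -1.60 for Ppfia2, -1.72 for Galntl6 and -1.71 for Kcnq3. Such a difference can lie in the change of either type. Lcorl, Ppfia2, Galntl6 and Kcnq3 had 1.71, 1.22, 1.27 and 2.16 in Agrp neurons. In n23 nuclei, where 0 genes were called on Day 1, they had -0.56, -0.46, -0.51 and 0.35. Groups of 2 or 3 mice are too small for a test of single outlying mice, so none was made.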

How the results depend on the processing

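Of 69 alternative values for the counts of called genes and the shares, 47 kept the side or size of the value reported, 11 were higher, 9 lower and 2 reversed. On Day 1 the count of 0 genes became 8 with no filter on low counts (15673 tested) and 3 in nuclei thinned to 1000 UMIs (288 tested). It became 0 to 14 with 1 mouse left out. On Day 5 the planned minimum of 10 nuclei left no test, and the count of 3 at a minimum of 5 became 6 with no filter, 0 with DESeq2, 0 in thinned nuclei, 6 with batch as a block and 2 to 20 with 1 mouse left out. The day comparison gave 1 gene with no filter, and could not be fitted without its only Day 5 vehicle mouse. Left out mouse by mouse, the 17 genes against Agrp neurons became 1 to 17, and the 5 against all other neurons 0 to 10, or 3 with no filter and 7 (5 higher, 2 lower) with RLE scaling. The cause was not tested, except that fewer mice or UMIs entered some of these fits.

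Whether the numbers shared by Day 1 mice in the labels pair them could not be settled. Deviations of same-numbered mice had correlations of -0.185, -0.171 and 0.114, and those of mice in the same batch 0.048, -0.263 and -0.190. These are too few values to tell. With the number as a replicate block, 0 genes passed and 80 had an unadjusted p below 0.05, and the share had a difference of 0.0586 points (exact p = 0.75, smallest possible p 0.25). Sst on Day 1 turned to -0.25 under the replicate block, to -0.17 with batch as a block and to -0.84 to 0.39 with 1 mouse left out. The Day 1 share difference ran from -0.0271 to 0.214 points and Nnat on Day 5 from -1.63 to 0.051 (without vehicle mouse 28) with 1 mouse left out. Of 560 alternative values for single named genes, 480 kept direction and side of the threshold, 31 came to pass it, 44 no longer passed and 5 reversed. Batch as a block and the Day 5 fits were chosen after seeing the data.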
